A study of Mus musculus with 10 samples.

Results

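The genes described here are the MAP kinases, the kinases that activate them, the dual-specificity phosphatases and the Sprouty and Spred genes. They were chosen by symbol: the letters Mapk, Map2k, Dusp, Spry or Spred followed directly by a digit, without the scaffold genes that carry ip after the number, which removed 5 symbols. This gave 48 of the 17493 genes in the deposited table: 19 kinases, 16 feedback inhibitors, 12 atypical dual-specificity phosphatases and the antisense RNA gene Map2k3os, whose symbol fits the rule although it encodes no kinase. The feedback inhibitors were the 10 MAP kinase phosphatases among the Dusp genes, 3 Sprouty genes and 3 Spred genes.

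RNA was sequenced from Th17 cells, the helper T cells that make IL-17. They were grown from naive CD4 T cells of C57BL/6 mouse spleen on plates coated with antibodies to CD3 and CD28, in the presence of the cytokines TGF-beta (2.5 ng/mL) and IL-6 (20 ng/mL), for 48 to 72 h. The TMP269 group (2 libraries) received TMP269, a selective inhibitor of class IIa histone deacetylases (HDAC4, 5, 7 and 9), before harvest. The control group (2 libraries) is labelled DMSO, the usual solvent for such compounds, and its table columns are headed WT. Strain, antibodies and cytokines are labelled alike in both groups, while neither the dose nor the exposure time is given in the sources used here. Replicates may be technical, since the labels do not say whether they came from separate animals or cultures, and a p-value here speaks only of the spread among these 4 libraries. A further 6 chromatin immunoprecipitation libraries are not analysed here.

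The 3 canonical MAP kinase branches are named after their last kinases, ERK, JNK and p38. In each branch a MAP3K or RAF kinase phosphorylates a MAP2K, which in turn phosphorylates a threonine and a tyrosine of the MAP kinase. In T cells the ERK branch is driven by RAS downstream of the antigen receptor. MAP kinase phosphatases remove both phosphates again, Sprouty and Spred proteins act on RAS and RAF, and many of these inhibitors are themselves transcribed in response to MAP kinase signals, which makes them feedback inhibitors.

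Values are normalised reads, that is, reads per gene divided by 1 size factor per library, and they were not scaled to gene length, so levels are compared between libraries and not between genes. The libraries held 20007042 to 25321455 recovered reads, and DMSO replicate 2 had the highest share of reads on the ribosomal RNA gene Rn45s (2.20%, against 0.716% to 1.12% in the others). Across the tested genes log2 values correlated at 0.992 between the DMSO replicates and 0.994 between those of TMP269. All 9 T cell markers were present, their summed level being 59763 and 65397 in DMSO and 67387 and 69591 in TMP269, and Il17a and Il17f were detected in every library. By the test given below, 12.8% of all genes tested were called higher and 14.7% lower with TMP269. Beside these shares, 2 of 8 Th17 markers, all tested, were called higher and 3 lower (median log2 fold change -0.48). They summed to 31388 and 33619 in DMSO and 29666 and 30172 in TMP269. B cell markers were present too and lower with TMP269: 7 of 10 were called lower, and their summed level was 5017 and 5137 in DMSO and 2769 and 2814 in TMP269, with none at 0. In such bulk samples fewer cells of a type and less RNA per cell cannot be told apart, and the part of these markers in the results below was not tested. Of 4 tested myeloid markers 1 was called higher and 1 lower, and the list summed to 495 to 549 normalised reads per library; markers of CD8 and NK cells summed to 387 to 629.

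A gene was tested when its value reached 10 in at least 2 libraries, and it was called when limma, a linear model of log2(value + 1) that shares its estimate of spread across genes, gave a Benjamini-Hochberg adjusted p under 0.05. Of 12535 genes tested, 27.5% were called (12.8% higher and 14.7% lower with TMP269). Of the 43 members tested, 12 were called, 7 higher and 5 lower, a share close to that of all genes. One of them, Dusp18, passed the filter only through its TMP269 libraries and therefore had to differ. The other 5 members, Mapk10, Mapk15, Dusp13, Dusp15 and Dusp27, had 0 to 4 reads per library and were not tested, and a count of 0 still allows up to 3 reads at this depth. The count of called members was 7 without DMSO replicate 2. It was 8 with DESeq2 and 13 with edgeR on recovered reads. With equal library totals 11 members were called higher and 3 lower. Under that scaling the median of all log2 fold changes was 0.10 in place of 0.00, and higher genes made up 67.3% of all calls in place of 46.5%.

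**Figure D1:**
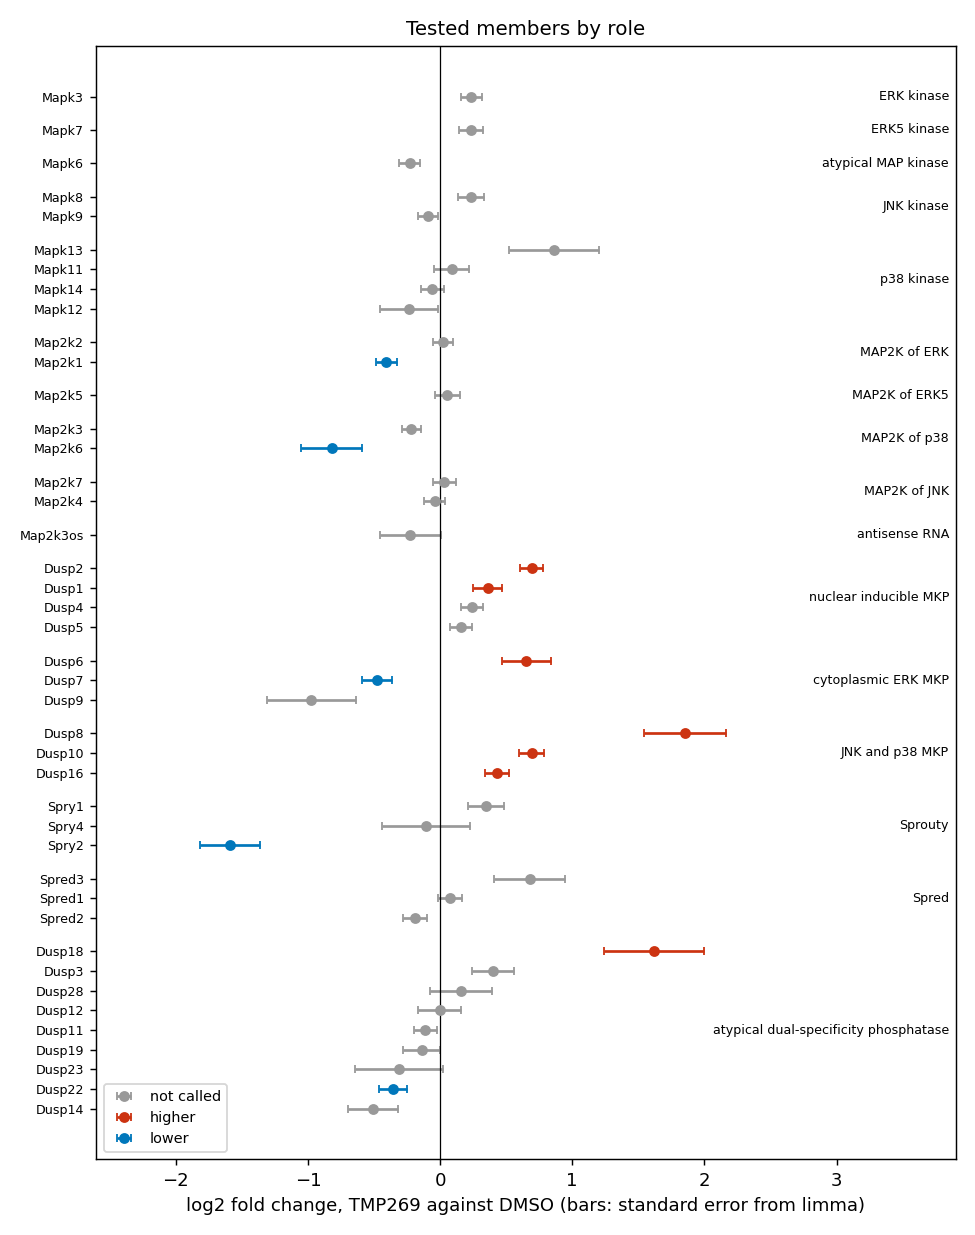
Log2 fold change of TMP269 against DMSO (horizontal axis) for the tested members described here, in rows grouped by role, with bars for the limma standard error. MAP kinase phosphatases of the JNK and p38 group lie to the right of 0 with all 3 called higher, whereas none of the MAP kinases drawn was called. Of all genes tested, 12.8% were called higher and 14.7% lower.

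None of the MAP kinases described here was called with limma. At an unadjusted p under 0.05 there were 5 of the 10 tested, beside 5071 of all 12535 genes tested. Of the MAP kinases edgeR called 1 and DESeq2 called 0. Mapk3, which encodes ERK1, had 1717 and 1636 normalised reads in DMSO replicates 1 and 2, and 1982 and 1965 in TMP269 replicates 1 and 2. Both TMP269 libraries were above both DMSO libraries, and the gene missed the threshold narrowly (log2 fold change 0.24 ± 0.08, SE, limma adjusted p = 0.0516). It passed with edgeR on recovered reads (0.0423), TMM scaling (0.0455), equal library totals (0.0241) and a filter at a mean value of 50 (0.0471), and its adjusted p ran from 0.0241 to 0.229 over 12 alternatives of test, scaling, filter, pseudocount and left-out library.

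Mapk7, the gene of ERK5, had 1030.2 and 942 normalised reads in DMSO replicates 1 and 2, and 1182 and 1135 in TMP269 replicates 1 and 2 (log2 fold change 0.23 ± 0.09, SE, limma adjusted p = 0.0834). Mapk6, the gene of the atypical kinase ERK3, had 3406 and 3733 normalised reads in DMSO replicates 1 and 2, and 3008 and 3071 in TMP269 replicates 1 and 2 (log2 fold change -0.23 ± 0.08, SE, limma adjusted p = 0.0616). The groups did not overlap in either gene, with Mapk7 higher and Mapk6 lower in both TMP269 libraries. Mapk6 passed without DMSO replicate 1 (0.0395, with 0.0395 to 0.278 over 12 alternatives) and Mapk7 with equal library totals (0.0446, with 0.0446 to 0.333 over 12 alternatives).

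The JNK genes Mapk8 and Mapk9 had small estimates of opposite sign. Mapk9, the JNK2 gene, had 1495 and 1497 normalised reads in DMSO replicates 1 and 2, and 1397 and 1410.4 in TMP269 replicates 1 and 2 (log2 fold change -0.09 ± 0.08, SE, limma adjusted p = 0.411), while Mapk8, the JNK1 gene, had 647 and 677 in DMSO, 738 and 817 in TMP269 (log2 fold change 0.23 ± 0.10, SE, limma adjusted p = 0.114). Neither was called, although in each the groups did not overlap, and Mapk8 passed with equal library totals (0.0361, with 0.0361 to 0.488 over 12 alternatives). Among the p38 genes, Mapk14, which encodes p38 alpha, had 1927 and 1927 normalised reads in DMSO replicates 1 and 2, and 1977 and 1730.5 in TMP269 replicates 1 and 2. The TMP269 libraries lay on either side of the DMSO pair (log2 fold change -0.06 ± 0.09, SE, limma adjusted p = 0.648). Mapk11 (p38 beta) overlapped between groups, and Mapk12 (p38 gamma) did not but was at 51.7 to 63.9 normalised reads in all libraries. Mapk13, the p38 delta gene, was low throughout, at 25.2 and 16.9 in DMSO, 45.5 and 32.3 in TMP269, and had the largest positive estimate among the kinases (log2 fold change 0.86 ± 0.34, SE, limma adjusted p = 0.0909). It passed without DMSO replicate 1 (0.0429, with 0.0429 to 0.435 over 11 alternatives).

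Of the 7 MAP2K genes, 2 were called (28.6%), both lower with TMP269, a share close to the 27.5% of all genes tested. Map2k1, which encodes the ERK-activating kinase MEK1, had 4942 and 5376 normalised reads in DMSO replicates 1 and 2, and 3814 and 3961 in TMP269 replicates 1 and 2. Every TMP269 library was below every DMSO library, and the gene fell 1.33-fold (log2 fold change -0.41 ± 0.08, SE, limma adjusted p = 0.00722). The call held under all 12 alternatives (adjusted p 5.81e-04 to 0.0334). Its partner Map2k2, the MEK2 gene, had 2649.8 and 2687 normalised reads in DMSO replicates 1 and 2, and 2789 and 2626 in TMP269 replicates 1 and 2. Those groups overlapped (log2 fold change 0.02 ± 0.08, SE, limma adjusted p = 0.866), so of the pair of MEK genes 1 was called and 1 was not; the difference between them was not tested.

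Map2k6, which encodes the p38-activating kinase MKK6, fell 1.77-fold from a low level, with 94.5 and 100.1 normalised reads in DMSO replicates 1 and 2, and 64.1 and 46.5 in TMP269 replicates 1 and 2 (log2 fold change -0.82 ± 0.23, SE, limma adjusted p = 0.0287). It rested on 105 and 83 reads in DMSO and 62 and 49 in TMP269. The call was lost with DESeq2 (0.0946), with equal library totals (0.0630), without DMSO replicate 2 (0.0998) and without TMP269 replicate 2 (0.152), within a range of 0.0117 to 0.152 over 12 alternatives. Map2k3, the gene of the other p38 activator MKK3, had 2787 and 2813 normalised reads in DMSO replicates 1 and 2, and 2398 and 2421 in TMP269 replicates 1 and 2. The groups were well apart relative to their narrow spread, but the change was small and not called (log2 fold change -0.22 ± 0.07, SE, limma adjusted p = 0.0581). The antisense gene Map2k3os was at 58.5 and 60.3 in DMSO, 46.5 and 55.1 in TMP269 and was not called (limma adjusted p = 0.496). In RefSeq, build GRCm38.p6, the 250 bases before the start of Map2k3 are chr11:60931804-60932053, plus strand. Those before the start of Map2k3os are chr11:60931868-60932117, minus strand. From these starts Map2k3 and Map2k3os run away from each other. The strand setting of the counting is unknown, and whether these genes shared reads was not tested. The JNK activator gene Map2k7 (MKK7) had 2145 and 1945 normalised reads in DMSO replicates 1 and 2, and 2164 and 2014 in TMP269 replicates 1 and 2, with overlapping groups (log2 fold change 0.03 ± 0.09, SE, limma adjusted p = 0.812). The groups of Map2k4 (MKK4), the other JNK activator, overlapped as well (limma adjusted p = 0.731). Map2k5, the activator of ERK5, had 657 and 644 normalised reads in DMSO replicates 1 and 2, and 701 and 652 in TMP269 replicates 1 and 2, again with overlapping groups (log2 fold change 0.06 ± 0.10, SE, limma adjusted p = 0.696).

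MAP kinase phosphatases were where most called members lay: 6 of 10 rose and 1 fell, beside 12.8% and 14.7% of all genes tested. Their median log2 fold change was 0.40, against 0.00 for all genes tested, and it stayed between 0.35 and 0.50 over the alternatives other than a block on replicate number. The number that rose was 4 without DMSO replicate 2 and 7 with equal library totals. These 10 genes were all tested.

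The 3 phosphatases that act mainly on JNK and p38 all rose, beside 12.8% called higher of all genes tested. Dusp10, which encodes MKP5, had 518 and 554 normalised reads in DMSO replicates 1 and 2, and 865 and 869 in TMP269 replicates 1 and 2. The TMP269 pair was nearly identical and far above the DMSO pair, a 1.62-fold rise (log2 fold change 0.69 ± 0.10, SE, limma adjusted p = 0.00169). Dusp16, the MKP7 gene, had 688 and 649 normalised reads in DMSO replicates 1 and 2, and 903 and 899 in TMP269 replicates 1 and 2. It rose 1.35-fold with similarly tight pairs (log2 fold change 0.43 ± 0.09, SE, limma adjusted p = 0.00980). Dusp8, a phosphatase gene best known from brain and heart, had 16.2 and 26.5 normalised reads in DMSO replicates 1 and 2, and 68.2 and 88.3 in TMP269 replicates 1 and 2. It rose 3.61-fold, the largest rise among the members (log2 fold change 1.85 ± 0.31, SE, limma adjusted p = 0.00392), from few reads: 18 and 22 reads in DMSO and 66 and 93 in TMP269. These 3 calls held under every alternative run, with adjusted p of 1.58e-05 to 0.00324 for Dusp10 and 0.00889 to 0.0451 for Dusp16 over 12 alternatives and 4.06e-04 to 0.00768 for Dusp8 over 11.

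Of the 4 nuclear phosphatases that antigen and growth signals induce, 2 rose, beside 12.8% called higher of all genes tested. Dusp2, also called PAC1 and found mostly in blood cells, had 1550.3 and 1670.5 normalised reads in DMSO replicates 1 and 2, and 2486 and 2724 in TMP269 replicates 1 and 2. Every TMP269 library was above every DMSO library, and Dusp2 had the smallest p of all members (1.62-fold rise, log2 fold change 0.69 ± 0.09, SE, limma adjusted p = 0.00109, 1.53e-08 to 0.00194 over 12 alternatives). Dusp1, the gene of MKP1, had 444 and 419 normalised reads in DMSO replicates 1 and 2, and 523 and 586 in TMP269 replicates 1 and 2. It rose 1.28-fold (log2 fold change 0.36 ± 0.11, SE, limma adjusted p = 0.0414) near the threshold. That call was lost with DESeq2 (0.0846), without a filter on low values (0.0541) and when DMSO replicate 1 (0.0541), DMSO replicate 2 (0.155) or TMP269 replicate 2 (0.241) was left out, within 0.0250 to 0.241 over 12 alternatives.

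Dusp4, the MKP2 gene, had 4547 and 4914 normalised reads in DMSO replicates 1 and 2, and 5864 and 5336 in TMP269 replicates 1 and 2. Both TMP269 libraries were higher, without a call (log2 fold change 0.24 ± 0.09, SE, limma adjusted p = 0.0632), and it passed with equal library totals (0.0211, with 0.0211 to 0.395 over 12 alternatives). Dusp5, a nuclear phosphatase specific for ERK, had 1075 and 1071 in DMSO, 1238 and 1161 in TMP269 and was not called (log2 fold change 0.16 ± 0.08, SE, limma adjusted p = 0.189).

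Among the 3 cytoplasmic phosphatases of ERK, 1 rose and 1 fell, beside 12.8% and 14.7% of all genes tested. Dusp6, the MKP3 gene and a widely used readout of ERK activity, had 350.0 and 265 normalised reads in DMSO replicates 1 and 2, and 567 and 406 in TMP269 replicates 1 and 2. It rose 1.57-fold (log2 fold change 0.65 ± 0.19, SE, limma adjusted p = 0.0306), but the replicates of both groups differed among themselves, and the call was lost without DMSO replicate 2 (0.129) and without TMP269 replicate 1 (0.121), within 2.65e-04 to 0.129 over 12 alternatives. Dusp7, the MKPX gene, had 953 and 1166 normalised reads in DMSO replicates 1 and 2, and 765 and 748 in TMP269 replicates 1 and 2. It fell 1.39-fold (log2 fold change -0.48 ± 0.11, SE, limma adjusted p = 0.0141), and the call was lost without DMSO replicate 2 (0.0796, with 0.00318 to 0.0796 over 12 alternatives). Dusp9, the MKP4 gene, had 74.7 and 73.6 normalised reads in DMSO replicates 1 and 2, and 53.7 and 25.6 in TMP269 replicates 1 and 2. Both TMP269 libraries were below DMSO but far from each other, and Dusp9 was not called (log2 fold change -0.98 ± 0.34, SE, limma adjusted p = 0.0603). Without TMP269 replicate 1 it passed (0.00169, with 0.00169 to 0.339 over 12 alternatives).

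**Figure D2:**
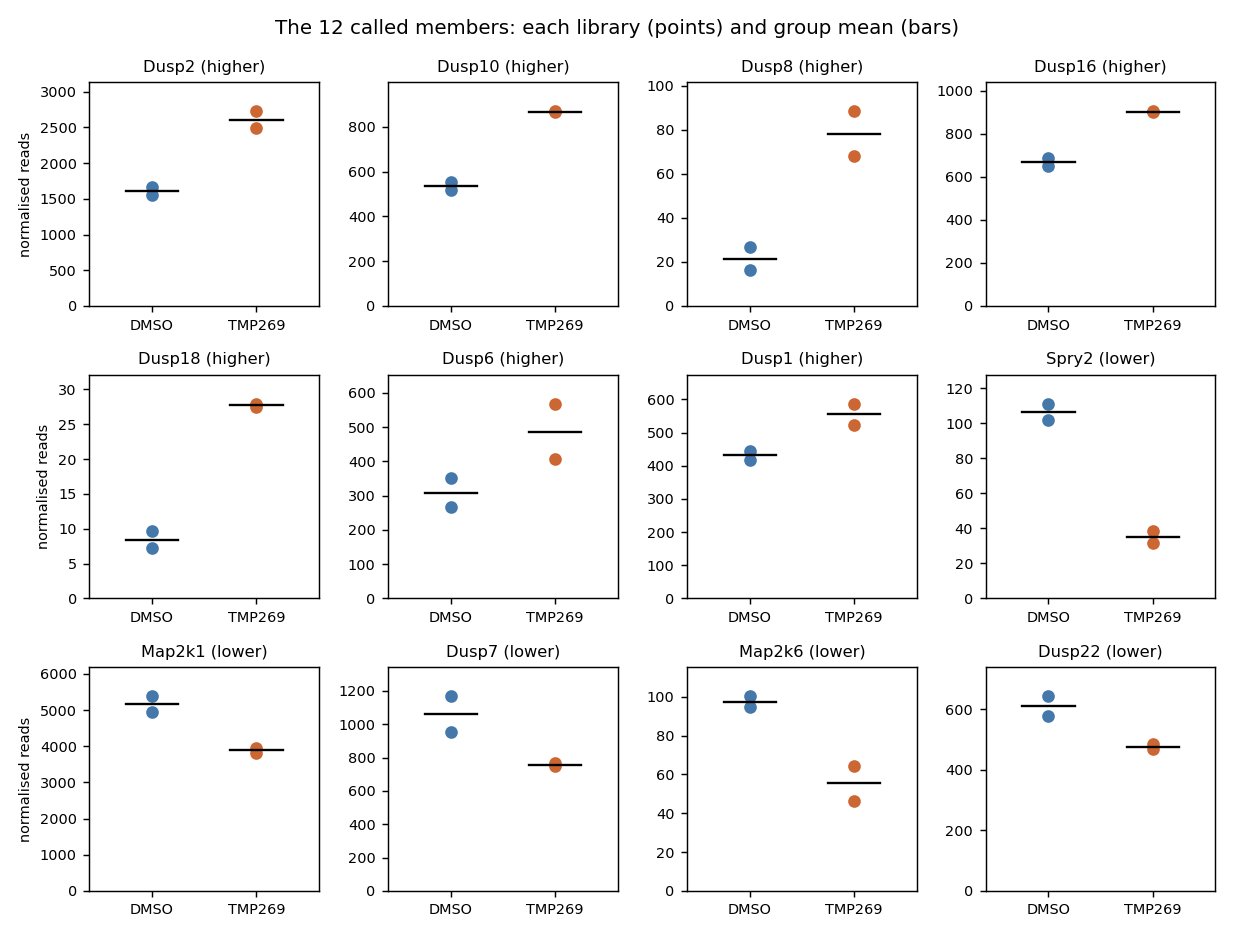
Normalised reads (vertical axes, each from 0) of the 12 called members, with 1 point per library for DMSO (blue) and TMP269 (orange) and a bar at each group mean. In all 12 panels the points of the groups do not overlap, which also held for 66.6% of all genes tested, and the points of Dusp10, Dusp16 and Dusp18 in TMP269 nearly coincide.

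The stretches of 250 bases before the annotated start of 5 members whose calls held under every alternative are printed to show the sequence in front of the phosphatase genes that rose together and of Spry2, which fell. They come from RefSeq, build GRCm38.p6, read 5′ to 3′ toward the gene, and of the 48 members 40 had such a window (52 windows, because some genes have several starts). Capitals mark matches on either strand to 5 motifs searched: the cAMP response element TGACGTCA, the AP-1 element TGACTCA or TGAGTCA, the EGR element GCGGGGGCG or GCGTGGGCG, the SRF CArG box and the MEF2 box. The windows are those of Dusp2 at chr2:127335909-127336158, plus strand, Dusp8 at chr7:142095285-142095534, minus strand, Dusp10 at chr1:184034131-184034380, plus strand, Dusp16 at chr6:134792629-134792878, minus strand, and Spry2 at chr14:105896820-105897069, minus strand.
Dusp2: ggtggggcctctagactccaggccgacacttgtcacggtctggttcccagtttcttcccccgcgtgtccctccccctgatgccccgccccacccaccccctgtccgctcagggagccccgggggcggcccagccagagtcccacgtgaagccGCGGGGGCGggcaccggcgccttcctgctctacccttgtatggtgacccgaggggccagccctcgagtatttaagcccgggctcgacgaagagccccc
Dusp8: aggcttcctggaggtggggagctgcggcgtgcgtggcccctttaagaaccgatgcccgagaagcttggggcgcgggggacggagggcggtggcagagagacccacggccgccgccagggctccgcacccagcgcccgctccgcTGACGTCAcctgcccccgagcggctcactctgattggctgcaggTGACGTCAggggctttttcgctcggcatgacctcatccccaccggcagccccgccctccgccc
Dusp10: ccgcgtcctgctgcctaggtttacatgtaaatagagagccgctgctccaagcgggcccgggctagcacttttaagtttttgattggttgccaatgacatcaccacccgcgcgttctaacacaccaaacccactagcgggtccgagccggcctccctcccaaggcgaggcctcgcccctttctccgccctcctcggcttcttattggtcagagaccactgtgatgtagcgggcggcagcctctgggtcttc
Dusp16: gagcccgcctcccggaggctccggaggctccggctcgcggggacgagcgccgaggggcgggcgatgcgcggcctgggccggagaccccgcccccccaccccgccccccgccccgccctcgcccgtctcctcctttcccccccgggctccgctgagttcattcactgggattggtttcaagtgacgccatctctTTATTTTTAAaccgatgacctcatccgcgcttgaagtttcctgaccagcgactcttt
Spry2: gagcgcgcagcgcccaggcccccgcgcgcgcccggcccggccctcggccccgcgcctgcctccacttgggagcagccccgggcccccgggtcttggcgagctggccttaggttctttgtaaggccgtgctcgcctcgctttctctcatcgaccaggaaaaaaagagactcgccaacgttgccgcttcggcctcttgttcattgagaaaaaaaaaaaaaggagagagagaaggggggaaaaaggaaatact

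Dusp2 has 1 EGR element that begins 98 bases before the start. Dusp8 has 2 cAMP response elements, beginning 107 and 63 bases before the start, and Dusp16 has 1 MEF2 box at 57 bases. MEF2 factors are the DNA-binding partners best known for class IIa histone deacetylases. No motif of the 5 was found in the windows of Dusp10 and Spry2, which says only that these letters are not there. Over all members the cAMP response element was in 3 of 52 windows (1.55% of all 32851 windows of the table), the AP-1 element in 1 (4.46%), the EGR element in 4 (3.06%), the CArG box in 1 (1.47%) and the MEF2 box in 2 (2.92%). The matches describe letters and not bound sites.

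Among the 6 Sprouty and Spred genes 1 fell and 0 rose with limma, beside 14.7% lower and 12.8% higher of all genes tested. At an unadjusted p under 0.05, 2 were higher, beside 5071 of all 12535 genes in either direction. Both edgeR and DESeq2 called 0 of the 6 higher. Spry2, an inhibitor of receptor signalling to RAS, had 102 and 111 normalised reads in DMSO replicates 1 and 2, and 38.2 and 31.3 in TMP269 replicates 1 and 2. Both TMP269 libraries were far below both DMSO libraries, a 3.01-fold fall and the largest fall among the members (log2 fold change -1.59 ± 0.23, SE, limma adjusted p = 0.00196). It rested on 113 and 92 reads in DMSO and 37 and 33 in TMP269, and the call held under all 12 alternatives (3.86e-05 to 0.00774). Spry1, its relative, had 408 and 340.1 normalised reads in DMSO replicates 1 and 2, and 513 and 439.7 in TMP269 replicates 1 and 2. Both TMP269 libraries were higher, without a call (log2 fold change 0.35 ± 0.13, SE, limma adjusted p = 0.0861), and it passed without DMSO replicate 1 (0.0379, with 0.0379 to 0.384 over 12 alternatives). Spry4 had 17 to 30 reads per library and overlapped between groups (limma adjusted p = 0.837).

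The Spred genes encode membrane-bound inhibitors that bring neurofibromin to RAS. Spred1 had 895 and 855 normalised reads in DMSO replicates 1 and 2, and 953 and 893 in TMP269 replicates 1 and 2, with overlapping groups (log2 fold change 0.08 ± 0.09, SE, limma adjusted p = 0.559). Spred2 was at 699 and 704 in DMSO, 611 and 618 in TMP269, lower in both TMP269 libraries and not called (log2 fold change -0.19 ± 0.09, SE, limma adjusted p = 0.158). Spred3 had 243 and 125 normalised reads in DMSO replicates 1 and 2, and 302 and 259 in TMP269 replicates 1 and 2. Its DMSO libraries differed about as much from each other as the groups did (log2 fold change 0.68 ± 0.27, SE, limma adjusted p = 0.0912), and it passed without DMSO replicate 1 (0.00165) and without TMP269 replicate 2 (0.0154), within 0.00165 to 0.480 over 12 alternatives.

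Atypical dual-specificity phosphatases lack the kinase-binding domain of the MAP kinase phosphatases, and several act on substrates other than MAP kinases. Of 9 tested, 1 rose and 1 fell, beside 12.8% higher and 14.7% lower of all genes tested. Dusp18 had 7.2 and 9.65 normalised reads in DMSO replicates 1 and 2, and 27.9 and 27.5 in TMP269 replicates 1 and 2. It was 3.07-fold higher (log2 fold change 1.62 ± 0.38, SE, limma adjusted p = 0.0148) on 8 and 8 reads in DMSO and 27 and 29 in TMP269, passed the filter only through the TMP269 libraries, and lost the call with DESeq2 (0.0737), without TMP269 replicate 1 (0.0794) and without TMP269 replicate 2 (0.0683), within 0.0128 to 0.0794 over 11 alternatives. Dusp22, known as JKAP, a phosphatase that restrains T cell receptor signalling through LCK, had 642 and 579 normalised reads in DMSO replicates 1 and 2, and 485 and 468 in TMP269 replicates 1 and 2. It fell 1.28-fold (log2 fold change -0.36 ± 0.11, SE, limma adjusted p = 0.0362). Leaving out any 1 library ended that call (DMSO replicate 1 0.146, DMSO replicate 2 0.0507, TMP269 replicate 1 0.0839, TMP269 replicate 2 0.130), as did DESeq2 (0.0891) and equal library totals (0.145), within 0.0327 to 0.146 over 12 alternatives.

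Dusp11, a phosphatase of RNA 5′ ends, had 4229 and 4747 normalised reads in DMSO replicates 1 and 2, and 4079 and 4223 in TMP269 replicates 1 and 2 and was not called (log2 fold change -0.11 ± 0.08, SE, limma adjusted p = 0.357). Dusp14 was lower in both TMP269 libraries, at 102 and 98.9 in DMSO, 71.3 and 69.3 in TMP269 (log2 fold change -0.51 ± 0.19, SE, limma adjusted p = 0.0804). Dusp3, the VHR gene, was higher in both, at 199.7 and 162 in DMSO, 249 and 226 in TMP269 (log2 fold change 0.40 ± 0.16, SE, limma adjusted p = 0.0921); it passed once DMSO replicate 1 was left out (0.0455, with 0.0455 to 0.395 over 12 alternatives). In Dusp12, Dusp19, Dusp23 and Dusp28 the groups overlapped.

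Set side by side, 2 of 17 tested kinases and 8 of 16 feedback inhibitors were called, beside 27.5% of all genes tested. The kinases had 0 higher and 2 lower, and the inhibitors had 6 higher and 2 lower. Of all genes tested, 12.8% were called higher and 14.7% lower. At an unadjusted p under 0.05, 4 kinases were higher, beside 5071 of all 12535 genes in either direction. Of the kinases edgeR called 1 higher and DESeq2 called 0 higher. Groups did not overlap in 11 of the 17 kinases, 4 higher and 7 lower, and in 14 of the 16 inhibitors, 10 higher and 4 lower, beside 32.6% higher and 34.0% lower of all genes tested. The median log2 fold change was -0.04 for the kinases and 0.30 for the inhibitors. Within the inhibitors it was 0.40 for the 10 MAP kinase phosphatases and -0.01 for the 6 Sprouty and Spred genes, of which 0 were called higher. With equal library totals the kinase median turned to 0.06, with 3 kinases called higher and 1 lower, and without TMP269 replicate 2 it was 0.04, while the inhibitor median lay between 0.21 and 0.40 over the alternatives other than a block on replicate number. The difference between the classes was not tested.

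**Figure D3:**
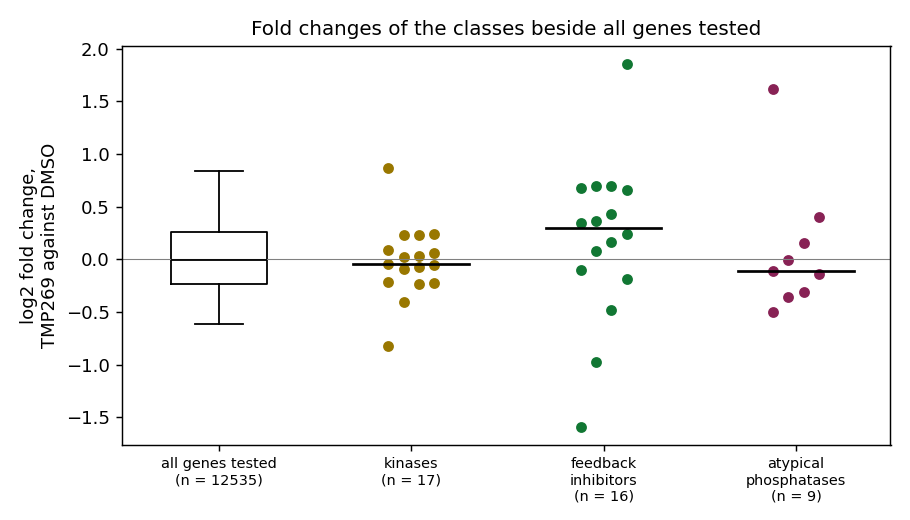
Log2 fold changes (vertical axis) of all 12535 genes tested, as a box with the quartiles and whiskers at the 5th and 95th percentiles, and of single kinases, feedback inhibitors and atypical phosphatases, as points with a bar at the median. The inhibitors' median is 0.30 and their range runs from -1.59 to 1.85, and the kinases' median is -0.04.

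A ratio within a library does not depend on its size factor. The summed reads of the 16 inhibitors were 40.8% and 40.9% of the summed reads of the 19 kinases in DMSO replicates 1 and 2, and 53.5% and 51.9% in TMP269 replicates 1 and 2. The share was higher in both TMP269 libraries, by far more than either pair differed. The inhibitor sums were 12592 and 12965 normalised reads in DMSO and 15773 and 15105 in TMP269, and the kinase sums were 30829 and 31690.0 in DMSO and 29471 and 29089 in TMP269. Members with many reads, such as Dusp4 and Dusp2 among the inhibitors and Map2k1 among the kinases, weigh most in these sums. With every tested gene weighted alike, the mean log2(value + 1) of the inhibitors minus that of the kinases was -1.41 and -1.42 in DMSO and -1.18 and -1.24 in TMP269. The ratio of Dusp2 to Map2k1 alone went from 0.314 and 0.311 in DMSO to 0.652 and 0.688 in TMP269. Dusp2 was called higher and Map2k1 lower in these same libraries, so this rise follows from those calls and adds no support to them. The class sums hold the same called genes, so the shares of the sums add no support to the calls either.

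**Figure D4:**
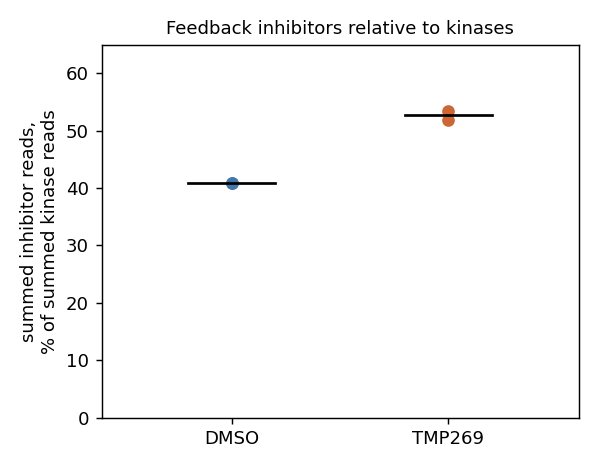
Summed normalised reads of the 16 feedback inhibitors as a percentage of those of the 19 kinases (vertical axis, from 0), with 1 point per library and a bar at each group mean. DMSO lies at 40.8% and 40.9%, where the points coincide, and TMP269 at 53.5% and 51.9%. Both sums hold the called members, so the percentages add no support to the calls.

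Other genes of the pathway were read from 4 lists, whose counts stand beside 12.8% of all genes tested called higher and 14.7% called lower. In the list of RAS, RAF and MAP3K genes upstream of the MAP2Ks, 8 of 29 rose and 4 fell (median log2 fold change 0.11). Rasgrp4, a RAS activator, had 529 and 423 normalised reads in DMSO replicates 1 and 2, and 1047 and 977 in TMP269 replicates 1 and 2. It rose 2.14-fold (log2 fold change 1.09 ± 0.12, SE, limma adjusted p = 7.25e-04). Map3k2 rose 1.37-fold (limma adjusted p = 0.00463), whereas Map3k4, a kinase upstream of p38 and JNK, fell 1.41-fold (limma adjusted p = 0.00483). The adaptor gene Grb2, which brings the RAS activator SOS to receptors, fell 1.24-fold (limma adjusted p = 0.0212); that call was lost with equal library totals (0.0608), without DMSO replicate 2 (0.0998) and without TMP269 replicate 1 (0.149), within 0.0138 to 0.149 over 12 alternatives. The number called in this list was 6 without DMSO replicate 2 and 6 without TMP269 replicate 1.

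Among 19 tested kinases and scaffolds downstream or beside the MAP kinases, 2 rose and 1 fell (median log2 fold change 0.09), and 5 were called without DMSO replicate 1 or without TMP269 replicate 2. Mapkapk3, a kinase that p38 activates, had 4194 and 4014 normalised reads in DMSO replicates 1 and 2, and 5914 and 6112 in TMP269 replicates 1 and 2. It rose 1.47-fold (log2 fold change 0.55 ± 0.08, SE, limma adjusted p = 0.00176). Spag9, the JNK scaffold JIP4, rose 1.32-fold (limma adjusted p = 0.00555), and Rps6ka4, the gene of the nuclear kinase MSK2, fell 1.37-fold (limma adjusted p = 0.00586). Of 21 other inhibitors of RAS and MAP kinase signalling, 6 rose and 1 fell (median log2 fold change 0.24). The RAS GTPase-activating genes Rasa3 and Nf1 rose 1.59-fold and 1.52-fold (limma adjusted p = 0.00211 and 0.00505). Pebp1, the RAF kinase inhibitor protein gene, had 5569 and 6353 normalised reads in DMSO replicates 1 and 2, and 4159 and 4296 in TMP269 replicates 1 and 2. It fell 1.41-fold (log2 fold change -0.49 ± 0.09, SE, limma adjusted p = 0.00475).

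In a list of 24 tested transcripts linked to ERK signals, 11 rose and 2 fell, beside 12.8% and 14.7% of all genes tested. The median log2 fold change was 0.41. This list, like the other gene lists, was chosen with earlier results of these data known, so its counts are no independent support. Over the alternatives other than a block on replicate number 10 to 13 rose and 1 or 2 fell. Most of the list are genes that ERK signals induce. It also holds Elk1, Elk3 and Elk4, which encode factors that act downstream of ERK, and Elk4 is among those counted as risen. The early response genes Egr1 (1.99-fold), Egr2 (1.51-fold), Egr3 (2.06-fold) and Fos (2.24-fold) all rose (limma adjusted p = 1.65e-04, 0.0142, 1.53e-04 and 0.00191), as did the cytokine gene Il2 (3.39-fold, limma adjusted p = 1.27e-04), which is outside the list. Fos had 97.2 and 88.0 normalised reads in DMSO replicates 1 and 2, and 198 and 218 in TMP269 replicates 1 and 2. Ier3, an early gene that acts on ERK itself, fell 1.51-fold (limma adjusted p = 0.0118), and the growth regulator gene Myc fell 1.24-fold (limma adjusted p = 0.0176), a call lost with equal library totals (0.0786), without TMP269 replicate 1 (0.0877) and without TMP269 replicate 2 (0.124), within 0.00546 to 0.124 over 12 alternatives. Etv4 and Etv5, factors often used with Dusp6 and Spry2 as ERK readouts, were lower in both TMP269 libraries and not called: Etv5 had 248 and 209.9 normalised reads in DMSO replicates 1 and 2, and 194 and 134 in TMP269 replicates 1 and 2 (log2 fold change -0.50 ± 0.20, SE, limma adjusted p = 0.0928). Among common readouts of ERK activity, Egr1 and Dusp6 were therefore called higher and Spry2 lower, while Etv4 and Etv5 were not called. The Dusp6 call was lost without DMSO replicate 2 and without TMP269 replicate 1.

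**Figure D5:**
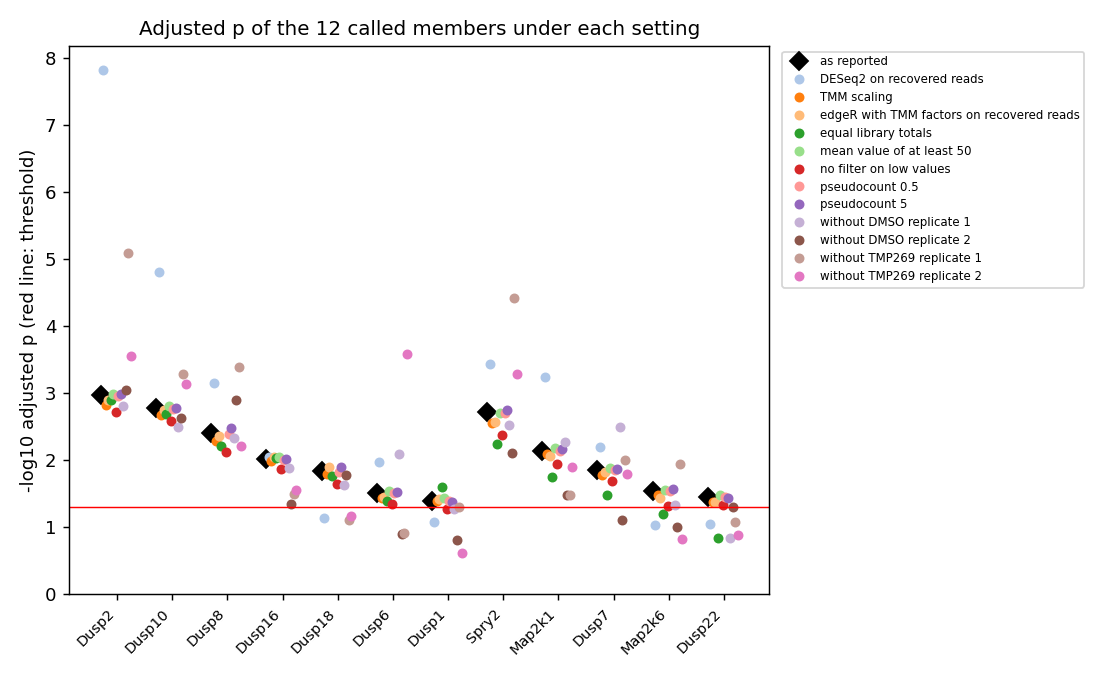
Negative log10 of the adjusted p (vertical axis) of the 12 called members as reported (black diamonds) and under each alternative test, scaling, filter, pseudocount or left-out library (coloured points), with a red line at the threshold of 0.05. Dusp2, Dusp10, Dusp8, Dusp16, Spry2 and Map2k1 stay above the line under every alternative drawn, and Dusp1, Dusp6, Dusp7, Dusp18, Dusp22 and Map2k6 cross it under at least 1.

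Of the 12 calls, 6 held under every alternative that gave them a value: Dusp2, Dusp8, Dusp10, Dusp16, Spry2 and Map2k1. The other 6 lost it under at least 1 alternative, and no called member changed direction. An exact permutation test of 2 against 2 libraries cannot reach the threshold, so each call depends on limma's pooled estimate of spread.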

How the data were processed

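The genes of this report and all gene lists were chosen with earlier results of these data known. RNA was measured in 2 DMSO and 2 TMP269 libraries. The authors deposited 1 normalised signal per gene and library, and the deposited values are read counts divided by 1 size factor per library: multiplied by 1.11 and 0.829 (DMSO replicates 1 and 2) and 0.967 and 1.05 (TMP269 replicates 1 and 2), 100% became whole reads within 0.001. Per the submitters' processing notes, which give no roles, DESeq2, HTSeq, TopHat2 2.1.0, Bowtie2 and CASAVA 1.4 were used, with build mm9. No annotation, strand setting or treatment of multiply mapped reads is given in the sources used here, so reads of overlapping genes are uncertain.

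The test was limma 3.58.1 (R 4.3.3) with a trended prior variance on log2(value + 1), for genes reaching 10 normalised reads in 2 or more libraries, two-sided, adjusted over all 12535 genes. Fold changes on this scale understate changes of low genes. It was checked on simulated data. Alternatives were edgeR 4.0.16 and DESeq2 1.42.0 on recovered reads, pseudocounts of 0.5 and 5, no filter, a mean value of at least 50, equal library totals, TMM scaling, a replicate block and each library left out. edgeR called 3406 genes and DESeq2 2853. Values in every library are printed for every called member and the highest uncalled member of each role, except that 1 member is not reported here by itself and enters class counts, medians and sums alone, and up to 2 called genes each way are named per pathway list, besides Egr1, Egr2, Egr3, Fos and Il2, which the rule named whether called or not. Other genes named with values (Mapk3, Mapk8, Mapk13, Dusp3, Dusp5, Dusp14, Spred2, Spred3, Etv5, Mapk8ip1, Mapk8ip3, Mapk1ip1, Mapk1ip1l) were added after their values were seen.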

Additional observations from a re-analysis of the deposited data

How the results depend on the processing

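Direction was kept by every called gene named in the text under all alternatives run. Of 208 recomputed counts of calls, 161 stayed within 1.5 times the reported count and 47 did not. With DESeq2 there were 3 members lower and 1 kinase called, that 1 lower. With equal library totals there were 1042 genes lower, 11 members higher and 3 lower, and 4 kinases called, 3 higher and 1 lower. TMM scaling, edgeR on recovered reads and a mean value of at least 50 each called 1 kinase higher, Mapk3. Leaving out 1 library in turn, where a lone library is assumed to vary like the others, gave 2078 to 3675 genes called (1063 to 1802 higher, 1015 to 1873 lower), 7 to 15 members (5 to 10 higher, 2 to 5 lower), 1 to 4 kinases (0 to 1 higher, 1 to 3 lower) and 5 to 9 feedback inhibitors (4 to 7 higher, 1 to 3 lower). In the pathway lists it gave 6 to 10 calls upstream, 3 to 5 downstream and 5 to 7 among other inhibitors. The lowest counts of all genes came without DMSO replicate 2 (2078) and TMP269 replicate 1 (2287). Reads limit Dusp8, Dusp9, Dusp18, Dusp23, Dusp28, Map2k3os, Mapk12, Mapk13 and Spry4, the tested members with under 100 reads in every library. The causes of these shifts were not tested.

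The replicate numbers are shared between the groups, but the labels do not tie them to an animal or a day. Deviations of same-numbered libraries correlated at r = 0.371 over 12535 genes, which are not independent. With the replicate number as a block, 6360 genes were called (3008 higher, 3352 lower), with 26 members (16 higher, 10 lower), 8 kinases (4 higher, 4 lower) and 14 feedback inhibitors (10 higher, 4 lower). Besides the members reported as called, these were Mapk3, Mapk7, Mapk8, Mapk13, Dusp3, Dusp4, Dusp5, Spry1 and Spred3 higher. Mapk6, Map2k3, Dusp9, Dusp14 and Spred2 were called lower. The ranges of adjusted p given per gene above leave this block out. The pathway lists had 19 calls upstream, 10 downstream and 12 among other inhibitors with the block.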

Other observations

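The symbols left out by the rule include the JNK scaffolds. Mapk8ip3, the JIP3 gene, had 2884 and 2003 normalised reads in DMSO replicates 1 and 2, and 3522 and 2896 in TMP269 replicates 1 and 2, higher in both TMP269 libraries without a call (log2 fold change 0.41 ± 0.16, SE, limma adjusted p = 0.0883). DMSO replicate 2 was the lowest library for it, as for Spred3 (125 normalised reads against 243 in DMSO replicate 1) and Mapk1ip1 (111 against 188). Mapk8ip1 had 25.2 and 16.9 in DMSO, 19.6 and 22.8 in TMP269 normalised reads and was not called (limma adjusted p = 0.951). Mapk1ip1l had 6598 and 7078 normalised reads in DMSO replicates 1 and 2, and 6195 and 5762 in TMP269 replicates 1 and 2, lower in both TMP269 libraries without a call (log2 fold change -0.19 ± 0.08, SE, limma adjusted p = 0.114).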
